A study of Mus musculus with 8 samples.

Results

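Peaks of N6-methyladenosine (m6A) were examined over 9 genes of the Wnt and β-catenin pathway in mouse embryonic stem cells (ESCs). The genes were the receptor Fzd7 and its co-receptor Lrp6, the destruction complex genes Axin1, Axin2, Apc and Gsk3b, the β-catenin gene Ctnnb1, and the TCF transcription factors Tcf7 and Tcf7l1. Peaks were assigned to a gene by their exon blocks, of which 1 base or more had to fall in an exon of that gene on the same strand, with GENCODE release M21 on the mm10 genome. By this rule 70 of the 31896 deposited peaks belonged to the 9 genes, 38 of the 18895 DMSO peaks and 32 of the 13001 Dox peaks. A peak was present over 8 of the 9 genes in each list, and Tcf7l1 had 0 peaks in both. Over all protein-coding genes, 27.5% carried a DMSO peak and 22.1% a Dox peak.

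The cells were of the E14 line and carried a doxycycline (Dox)-inducible Dux transgene and a tdTomato reporter driven by the Mervl promoter, in the control group as well as in the treated group. They were given DMSO, the solvent control, or Dox for 24 h, which switches on Dux, a transcription factor of the 2-cell embryo that drives part of the culture into a 2C-like state. Methylated RNA immunoprecipitation sequencing (MeRIP-seq) was performed on poly(A) RNA, from which IP and input libraries were made in 2 replicates for each treatment, 8 libraries in all. The comparison asks which stretches of the pathway's mRNAs were called as methylated before and after Dux induction. The authors deposited 1 peak list per treatment with the replicates already combined, so that no value below has a replicate error and no test between treatments was made. Intervals are Wilson 95% intervals and cover counting error only. Peaks of 1 gene share a transcript and are not independent of each other.

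The libraries were made from whole cultures. Peaks lay over 5 of 5 ESC marker genes in each list, and over 2 of 5 marker genes of the 2C-like state with DMSO (Zscan4c and Zscan4d) against 5 of 5 with Dox, which added Duxf3, Usp17la and Tcstv1. Some of these calls were small, with 1 DMSO peak of 25 bases over Zscan4d and 1 Dox peak of 50 bases over Tcstv1. Whether the Duxf3 peaks came from the Dux transgene was not tested. Markers of primitive endoderm, trophectoderm and feeder fibroblasts had 0 peaks in both lists (3 genes each). In such bulk RNA, fewer cells of a type and less RNA per cell cannot be told apart. Transcript abundance and read depth were not analysed here, and both set how easily a peak is called. Their part in every difference between the lists was not tested.

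In the canonical Wnt pathway, β-catenin is phosphorylated by GSK3 within a complex scaffolded by AXIN and APC, and is then degraded. Binding of a Wnt ligand to a Frizzled receptor and LRP5 or LRP6 halts this, so that β-catenin accumulates and joins TCF/LEF factors on DNA. In mouse ESCs, inhibition of GSK3 relieves repression by the TCF7L1 protein and favours self-renewal. m6A is laid down by the METTL3-METTL14 complex, mostly in long exons and near stop codons, and marks many mRNAs for faster turnover through YTH proteins.

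The writer complex prefers an adenosine within the motif DRACH, of which GGAC is the commonest core. GGAC was searched on the strand of each peak in the spliced sequence of its exon blocks. It was present in 24 of 38 DMSO peaks over the pathway genes (63.2%, 47.3 to 76.6) and in 16 of 32 Dox peaks (50%, 33.6 to 66.4). Over the whole lists 54.0% of DMSO peaks and 55.9% of Dox peaks held it. The reverse complement, GTCC, was present in 19 of 38 and in 14 of 32 peaks of the pathway genes, and in 36.6% and 37.0% of the whole lists. The pathway peaks were longer in the DMSO list, with a median of 175 nt against 125 nt over the whole list, and a longer peak has more room for any motif. The median of the Dox peaks was 112.5 nt, also against 125 nt.

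One window per gene shows the sequence context, taken from the best-scoring DMSO peak with a GGAC and the copy nearest to its middle. The windows are mouse reference sequence of GRCm38 (mm10), written 5′ to 3′ on the strand of the gene, with GGAC in capitals and 10 bases on either side. The Fzd7 window (chr1:59482495-59482518, plus strand) lay in the 5′UTR, with its motif at base 82 of the transcript, inside the DMSO peak and beyond the end of the Dox peak. The motifs of the other windows lay inside a peak of both lists. The Lrp6 window (chr6:134541920-134541943, minus strand) and the Axin2 window (chr11:108923917-108923940, plus strand) lay in coding sequence of exon 2. In Axin1 (chr17:26195045-26195068, plus strand) the motif stood directly before the stop codon. The Gsk3b window (chr16:38089732-38089755, plus strand) lay in the 5′UTR. In Ctnnb1 (chr9:120950206-120950229, plus strand) the motif ended 1 base before the start codon. In Tcf7 (chr11:52253844-52253867, minus strand) it began 28 nt downstream of the first base of the stop codon. A match describes the sequence and is not evidence that this adenosine was methylated.
Fzd7: gagcaggcagGGACgcagggcgct
Lrp6: cagctgcggtGGACtttgtgtttg
Axin1: tggaaaaggtGGACtgagcactgg
Axin2: gagtaacgggGGACtggggagcct
Gsk3b: acgggggaggGGACcccgagggac
Ctnnb1: accgctgcgtGGACaatggctact
Tcf7: cagctccccaGGACtcaccctcgt

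Pooled over the 8 transcripts, GGAC was denser inside peaks than outside, but single genes differed. The transcripts held 191 copies, of which 43 (22.5%) lay in DMSO peaks that took up 17.1% of the bases, and 29 (15.2%) in Dox peaks that took up 11.5%. This came to 5.13 copies per kb inside DMSO peaks and 3.63 outside, and to 5.13 and 3.72 for the Dox list. Densities were not computed for GTCC or over the whole lists, so they do not single out this motif or these genes. Ctnnb1 went the other way, with 6 of its 24 copies in DMSO peaks that took up 32.4% of its bases, and 5 (20.8%) in Dox peaks that took up 25%. So did Tcf7, with 1 of its 10 copies in the peaks of each list, which took up 15.5% and 15.9% of its bases. In Lrp6 the Dox peaks held 4.08% of the copies and 5.60% of the bases. Lrp6 contributed most to the difference in number, with 10 of its 49 copies in DMSO peaks and 2 in Dox peaks.

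The pathway genes had more peaks and more peak bases in the DMSO list than in the Dox list. The 38 DMSO peaks covered 8459 exon bases and the 32 Dox peaks covered 5692. The ratio of peaks was 1.19, against 1.45 for the whole lists, and the ratio of bases was 1.49, against 1.47 for the whole lists. With the 13001 best-scoring peaks taken from each list, the pathway genes had 30 DMSO and 32 Dox peaks (ratio 0.938), so that the direction of the peak count turned, whereas the DMSO peaks still covered more bases (7559 against 5692, ratio 1.33). Of the 8 genes with peaks, 5 had more DMSO peaks (Axin2, Apc, Gsk3b, Tcf7 and Lrp6), 3 had as many (Ctnnb1, Axin1 and Fzd7) and 0 had more Dox peaks. Over all genes with a peak in either list, 58.9% had more DMSO peaks. More annotated exon bases were covered in the DMSO list in 6 of the 8 genes, and in the Dox list in Axin2 and, narrowly, in Tcf7 (384 in DMSO and 392 in Dox). Over all genes with a peak, 86.3% had more DMSO bases.

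**Figure D1:**
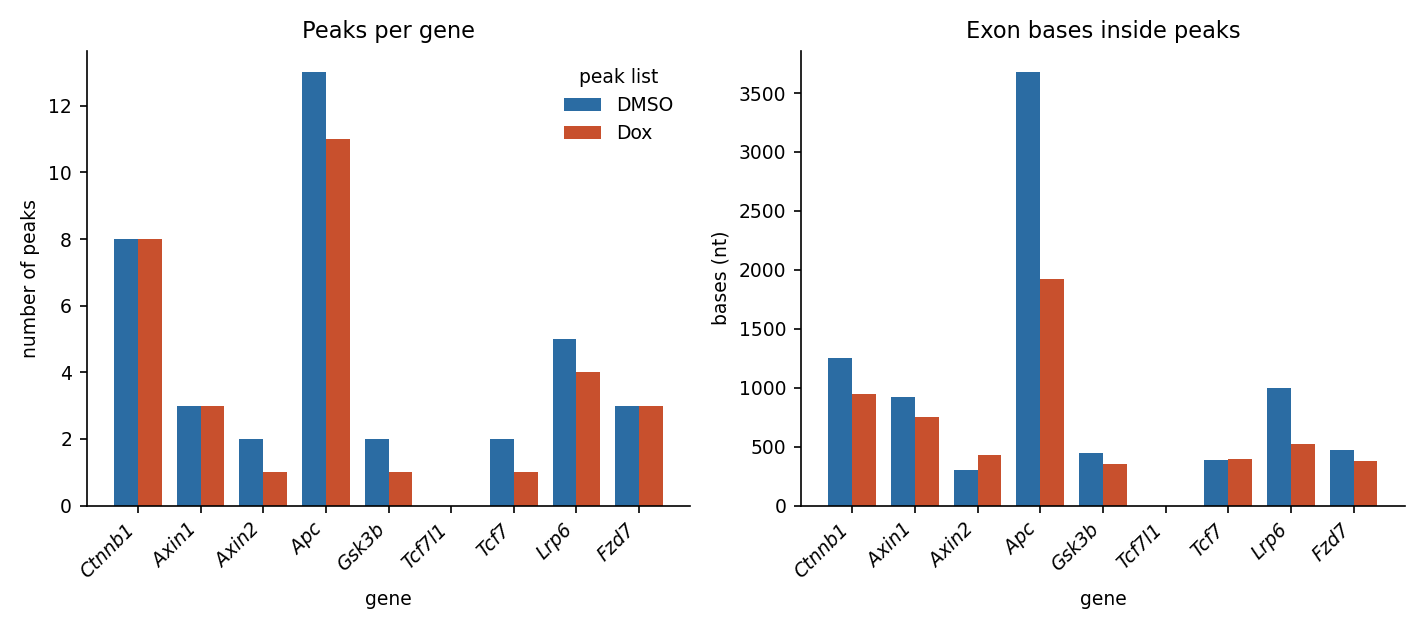
Number of m6A peaks (left) and exon bases inside peaks in nt (right) for each of the 9 genes, in the DMSO list (blue) and the Dox list (orange). Each bar is 1 value from a list in which replicates were combined, so there are no error bars. Apc stands out with 3675 DMSO and 1925 Dox bases, and Tcf7l1 has no bar.

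How far the sites were held in common depended on the overlap asked for. Of the DMSO peaks, 31 of 38 (81.6%, 66.6 to 90.8) shared at least 1 base with a Dox peak, and all 32 Dox peaks shared a base with a DMSO peak. With at least 50% of the bases of both peaks in common, the shares were 47.4% (32.5 to 62.7) and 56.2% (39.3 to 71.8). Shares by this stricter rule were not computed over the whole lists. The 7 DMSO-only peaks made up 18.4% (9.22 to 33.4), against 43.0% of the whole DMSO list. There were 0 Dox-only peaks (interval up to 10.7%), against 7.31% of the whole Dox list. The pathway DMSO peaks had a median of 175 nt, against 125 nt over the whole DMSO list. A longer peak meets a 1-base overlap more easily, and the part of length in these shares was not tested. In bases, 5467 lay in peaks of both lists, which was 64.6% of the DMSO bases and 96.0% of the Dox bases. The 7 DMSO-only peaks fell in Apc (4), Lrp6 (2) and Gsk3b (1). Their median score lay at the 36.1 percentile of the DMSO list, and that of the shared DMSO peaks at the 63.6 percentile. The score of a peak is the value the authors gave it, read as −log10 of its p-value, and percentiles are taken within its own list.

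**Figure D2:**
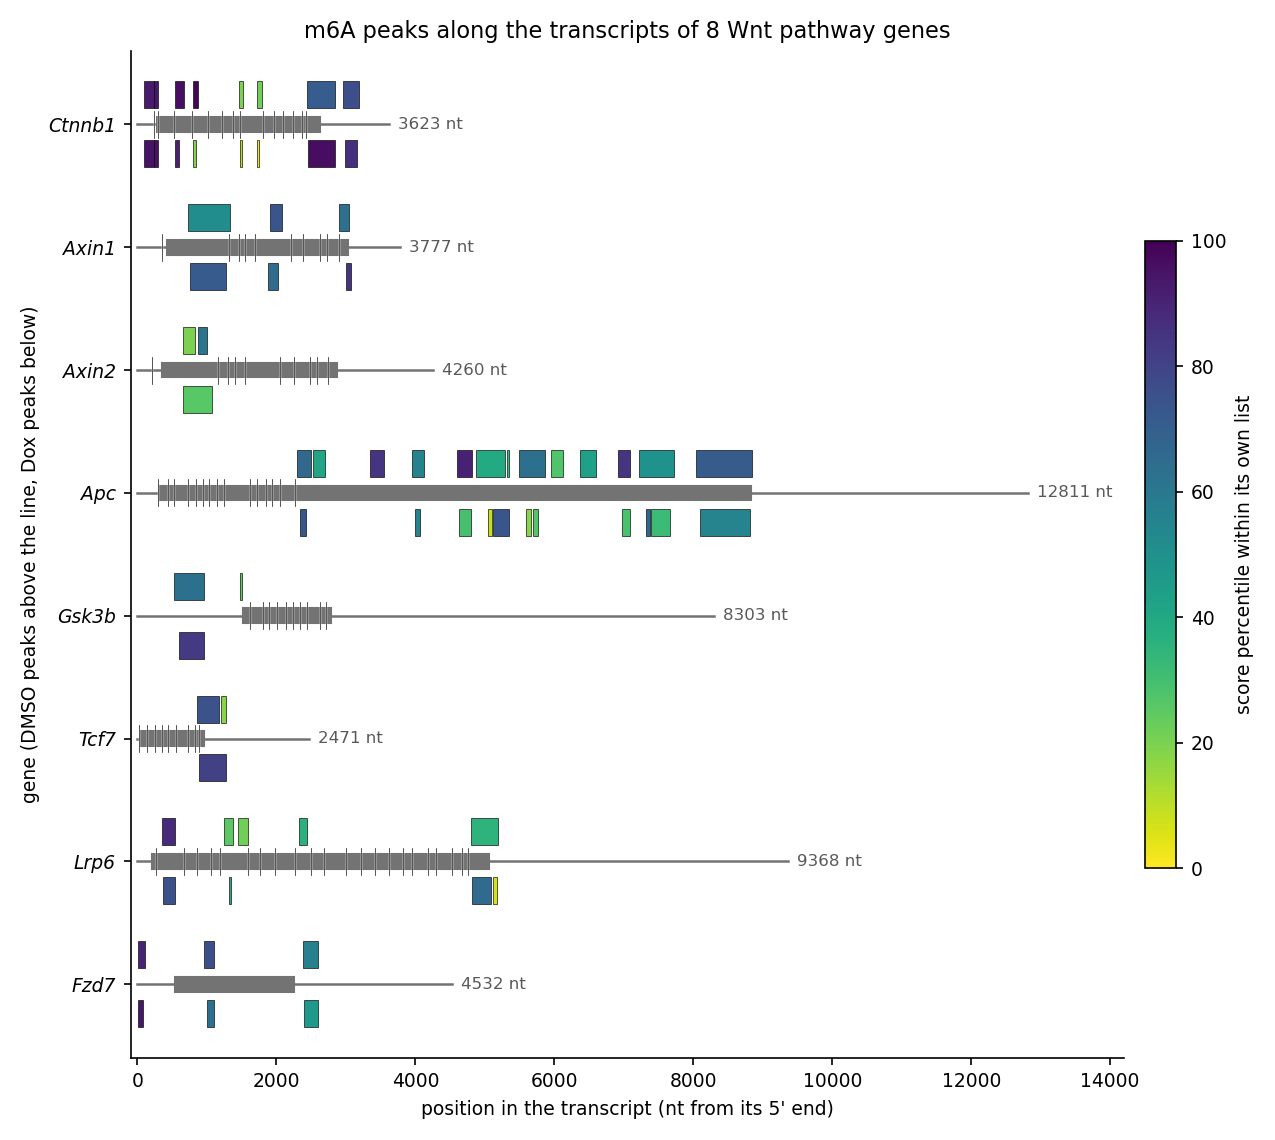
Position of every m6A peak along 1 transcript of each of the 8 genes, in nt from its 5′ end. The thick grey bar is the coding sequence, the thin line the UTRs and the ticks are exon junctions. Boxes above the line are DMSO peaks and boxes below are Dox peaks, coloured by score percentile within their list. Every Dox box overlaps a DMSO box in position, and 7 DMSO boxes in Apc, Lrp6 and Gsk3b have none below them.

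Fzd7 encodes a Frizzled receptor that binds Wnt ligands (ENSMUSG00000041075.8, chr1:59482424-59486955, plus strand). The gene has a single exon of 4532 nt and carried 3 peaks in each list, at the same 3 sites. The first peak began at the first base of the annotated transcript and was the best-scoring one in both lists, with 100 nt and a score of 15.37 in DMSO (chr1:59482424-59482523) and 75 nt and 15.97 in Dox. Antibodies to m6A also bind the related cap-adjacent base m6Am, and a peak at a transcript's first base does not separate them. The peak in the coding sequence spanned codons 139 to 188 with 150 nt in DMSO (score 12.99) and codons 155 to 188 with 100 nt in Dox (11.98). The third peak lay in the 3′UTR, with 225 nt and 200 nt and scores of 11.88 and 11.40. In all, 475 bases were covered in DMSO and 375 in Dox, and every Dox base lay in a DMSO peak. Among peaks that scored at least the DMSO median, 175 Dox bases were left and the ratio of bases moved from 1.27 to 2.71.

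Lrp6 encodes the co-receptor that recruits AXIN when a Wnt ligand is bound (ENSMUSG00000030201.15, chr6:134446476-134566965, minus strand). It carried 5 DMSO peaks with 1000 bases and 4 Dox peaks with 525 bases. The best-scoring peak of both lists lay in exon 2, with 200 nt and a score of 14.65 in DMSO (chr6:134541772-134541971) and 175 nt and 12.63 in Dox (chr6:134541772-134541946). The lists differed in the middle of the coding sequence. In exon 6 a DMSO peak of 125 nt (score 10.94) stood over a Dox peak of 25 nt (11.19). A DMSO-only peak of 150 nt joined exons 6 and 7 at codons 410 to 460 (chr6:134506362-134507429, score 10.84), and another of 125 nt lay in exon 10 at codons 702 to 743 (chr6:134484264-134484388, score 11.24). Both scored below the median of the DMSO list, which was 11.6. At the stop codon a DMSO peak of 400 nt (score 11.22) met a pair of Dox peaks of 275 nt and 50 nt (12.08 and 10.30). Among peaks that scored at least the DMSO median, Lrp6 kept 200 DMSO bases and the direction of its ratio turned, to 0.444.

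The destruction complex genes held 20 of the 38 DMSO peaks and 16 of the 32 Dox peaks, most of them in Apc. Axin1, the scaffold of the complex (ENSMUSG00000024182.16, chr17:26138688-26195811, plus strand), had 3 peaks in each list. A long one began in exon 2 at codon 102 in DMSO, with 600 nt and a score of 11.67, and at codon 111 in Dox, with 525 nt and 12.42. The second lay in exon 6, with 175 nt and a score of 12.81 in DMSO, its best (chr17:26187915-26188089), and 150 nt and 12.06 in Dox. The third lay at the stop codon, with 150 nt and a score of 12.15 in DMSO and 75 nt and 13.55 in Dox, the best of that list (chr17:26195034-26195108). The bases covered were 925 and 750, with 700 in both lists. Axin1 thus kept its 3 sites in both lists.

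Axin2 encodes a second scaffold that is itself a transcriptional target of β-catenin and serves as a feedback inhibitor (ENSMUSG00000000142.15, chr11:108920349-108950783, plus strand). All of its peaks lay in exon 2, which is 951 nt long. The DMSO list had a peak of 175 nt at codons 102 to 160 (score 10.79) and a peak of 125 nt at codons 177 to 218 (score 12.06, chr11:108923816-108923940). The Dox list had 1 peak of 425 nt at codons 102 to 243 (score 10.89, chr11:108923591-108924015), which held both DMSO peaks and the bases between them. Fewer peaks therefore covered more bases, 425 in Dox against 300 in DMSO. The Dox score lay at the 26.0 percentile of its list, and at a threshold of the DMSO median no Dox peak over Axin2 was left, against 125 DMSO bases. With the 13001 best-scoring peaks of each list the ratio of DMSO to Dox bases moved from 0.706 to 0.294.

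Gsk3b encodes the kinase that phosphorylates β-catenin (ENSMUSG00000022812.14, chr16:38089001-38246084, plus strand). Its peaks all lay in the long 5′UTR within exon 1, and the 3′UTR of 5515 nt carried 0 peaks. The main peak had 425 nt and a score of 12.18 in DMSO (chr16:38089526-38089950) and 350 nt and 13.40 in Dox (chr16:38089601-38089950), with the same 3′ end. A DMSO-only peak of 25 nt, the shortest length in the lists' usual steps of 25 nt, lay close to the start codon (chr16:38090476-38090500, score 10.93).

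Ctnnb1 encodes β-catenin, the effector of the pathway (ENSMUSG00000006932.17, chr9:120929216-120960507, plus strand). It carried 8 peaks in each list at the same 8 sites, more than 93.3% of genes with a DMSO peak and 96.0% of genes with a Dox peak, where the median gene had 2. The peaks covered 1250 bases in DMSO and 950 in Dox, and all Dox bases lay in DMSO peaks. The 2 peaks in the 5′UTR had identical blocks in both lists, the first of 175 nt with scores of 16.46 and 16.93 and the second of 75 nt, which reached the start codon, with scores of 16.81 and 17.19. The 5′ end of the mRNA was thus called alike in both lists.

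Within the coding sequence of Ctnnb1 all 4 peaks were shorter in the Dox list and had a lower score. The peak in exon 5 at codons 169 to 194 had the best score of all 70 peaks, 28.02 in DMSO, at the 98.8 percentile (chr9:120951277-120951351, 75 nt). In Dox the same site had 50 nt and a score of 10.69, at the 18.6 percentile. The score thus fell by 17.33. A fall at least as large was seen in 1.33% of the 8888 matched pairs of the whole lists with finite scores. Since no score lay below 10, only peaks near the top of the DMSO list could fall so far. The peak was named for its high DMSO score, so this share does not measure how unusual the fall was. In exon 4 the peak went from 125 nt and a score of 19.18 in DMSO (codons 86 to 127) to 50 nt and 14.83 in Dox (codons 86 to 102). A DMSO peak of 100 nt joined exons 8 and 9, and another of 75 nt lay in exon 9, with scores of 10.79 and 10.84. Each was 25 nt long in Dox, with scores of 10.45 and 10.07, close to the lowest score in the lists, which was just above 10.

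The peak at the stop codon of Ctnnb1 went the other way in score. It had 400 nt and a score of 12.60 in DMSO (chr9:120959320-120959719) and 375 nt and 18.46 in Dox (chr9:120959345-120959719), the best Dox score among the 9 genes, at the 96.5 percentile. A rise of 5.85 or more was seen in 1.68% of matched pairs of the whole lists. This peak was named for its high Dox score, so the share does not measure how unusual the rise was. The 3′UTR peak downstream had 225 nt and 175 nt and scores of 12.99 and 13.78. The best-scoring site of the mRNA therefore lay in the coding sequence in the DMSO list and at the stop codon in the Dox list. These scores are 1 value per list and carry depth and abundance with them, so no error can be put on the shift.

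Tcf7, a TCF/LEF factor that pairs with β-catenin at target genes (ENSMUSG00000000782.15, chr11:52252371-52283014, minus strand), carried its peaks around the stop codon. The DMSO list had a peak of 325 nt over the stop codon (score 12.88, chr11:52253671-52256274) and one of 75 nt downstream in the 3′UTR (score 10.72). In the Dox list a single peak of 400 nt held most of both (score 13.10, chr11:52253571-52255163). Of the 325 nt, 309 lay in annotated exons, as did 392 of the 400 nt, the rest being in blocks that GENCODE M21 does not give as exons of the gene. The annotated exon bases covered were 384 in DMSO and 392 in Dox, a ratio of 0.980. Tcf7l1, the TCF factor that represses pluripotency genes in ESCs (ENSMUSG00000055799.13, chr6:72626378-72789254, minus strand), had 0 peaks in either list over 3924 exon bases. No peak does not show that a transcript was absent or unmethylated, only that none was called at this depth.

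Apc encodes the large scaffold whose loss stabilises β-catenin (ENSMUSG00000005871.15, chr18:34220924-34322552, plus strand). It had the most peaks of the 9 genes, 13 in DMSO and 11 in Dox, more than 98.7% and 98.6% of genes with a peak. All 24 lay in its last exon, number 16, of 10548 nt, and none had its middle in the 3′UTR of 3971 nt. The other 15 exons, 2263 nt together, held no peak base. DMSO peaks covered 3675 bases, 34.8% of the exon, and Dox peaks covered 1925, 18.2%. The ratio of 1.91 was the highest of the 8 genes with peaks, ahead of Lrp6 at 1.90.

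The smaller coverage of Apc in the Dox list took more than 1 form. There were 4 DMSO-only peaks, at codons 737 to 795 (175 nt, score 11.38), 1012 to 1078 (200 nt, 14.01), 1879 to 1937 (175 nt, 11.01) and 2020 to 2095 (225 nt, 11.44). There were also DMSO peaks that met more than 1 Dox peak, of 425, 375 and 500 nt. The peak of 375 nt, for example, lay over a pair of Dox peaks of 75 nt each. The best-scoring DMSO peak, at codons 1429 to 1503 (score 15.61, 225 nt), had a score of 10.98 and 175 nt in Dox. The best Dox score was 12.57, at codons 1604 to 1678 (225 nt), where the DMSO peaks scored 11.33 and 11.13. The longest peak of the 9 genes ended the series, with 800 nt in DMSO (score 12.61) and 725 nt in Dox (11.65). The DMSO peak ran over the stop codon and the Dox peak ended short of it.

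Peaks that matched 1 to 1 between the lists allow length and score to be compared at the same site, and there were 22 such pairs in 6 of the genes. In 20 of 22 pairs the DMSO peak exceeded the Dox peak in length, the reverse was seen in 0, the other 2 being the identical 5′UTR peaks of Ctnnb1. Over the whole lists the DMSO peak was longer in 68.9% of 8891 pairs. All DMSO peaks of the pathway genes had a median of 175 nt, against 125 nt over the whole DMSO list. A longer peak has more room to be shortened, and the part of length in this difference was not tested. The score showed no such uniform direction. It was higher in DMSO in 12 of 22 pairs (54.5%), against 66.1% over the whole lists. Shorter Dox peaks thus came with lower scores at some sites (exon 5 of Ctnnb1, codon 1429 of Apc) and with higher scores at others (the stop codons of Ctnnb1 and Axin1, the 5′UTR of Gsk3b). Axin2 and Tcf7 gave no 1-to-1 pair, since in each the Dox peak joined both DMSO peaks.

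**Figure D3:**
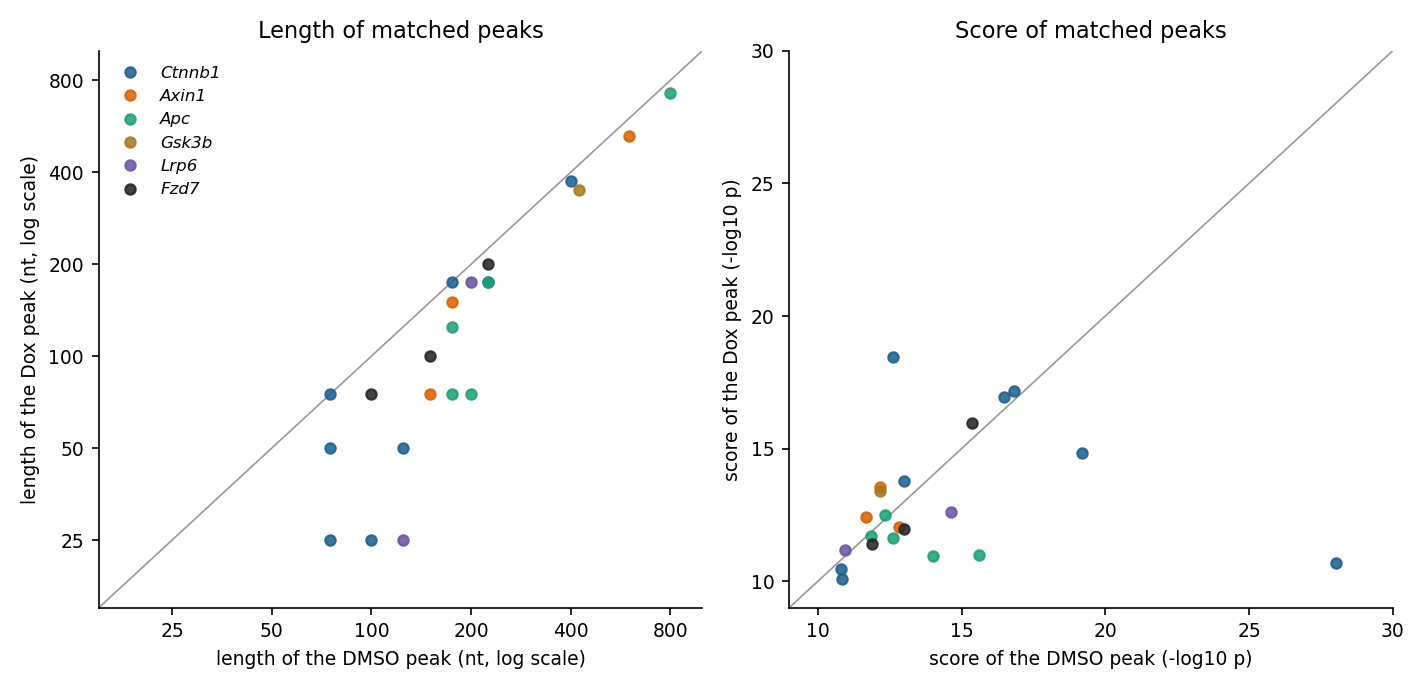
Length in nt (left, log scales) and score as −log10 p (right, linear scales) of the 22 peaks that matched 1 to 1, with the DMSO value on the x axis, the Dox value on the y axis, 1 point per pair coloured by gene and the grey line marking equality. In length, 20 points lie below the line and 2 on it. In score, points lie on both sides, with the exon 5 peak of Ctnnb1 (28.02 against 10.69) far to the right and its stop codon peak (12.60 against 18.46) well above the line.

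Along the mRNA, most peaks of the pathway genes lay in coding sequence. On the transcripts drawn, the middle of the peak was in the 5′UTR for 5 DMSO and 4 Dox peaks, in coding sequence for 28 and 22, and in the 3′UTR for 5 and 6. Of those in coding sequence, 13 and 11 were Apc peaks. The share in coding sequence was not computed over the whole lists. With the transcript of longest coding sequence as the common rule, 4 of 37 placed DMSO peaks (10.8%) and 3 of 31 placed Dox peaks (9.68%) lay in the 5′UTR, against 3.41% and 3.85% of the whole lists. These few came from Ctnnb1 and Fzd7, and in DMSO also from Gsk3b. By the same rule 4 of 37 DMSO peaks (10.8%, 4.29 to 24.7) and 5 of 31 Dox peaks (16.1%, 7.09 to 32.6) had their middle within 200 nt of the stop codon, against 22.9% and 25.1% of the whole lists. Apc alone supplied 13 and 11 of the peaks, all farther away. Counted by gene, the stop codon lay inside a peak in 5 of 8 genes in DMSO (Ctnnb1, Axin1, Apc, Tcf7 and Lrp6) and in 4 of 8 in Dox, with Apc missing. Over protein-coding genes with a peak this was so for 41.4% and 38.4%.

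Peak bases of the pathway genes lay mostly in long exons, as did those of all coding genes with a peak. Apc alone held 3675 of the 7204 DMSO peak bases in long exons and 1925 of the 5092 Dox ones. Exons of at least 400 nt made up 71.2% of the bases of the 8 transcripts and held 85.9% of the DMSO peak bases and 90.2% of the Dox peak bases. Over all coding genes with a peak in either list, long exons made up 60.6% of the bases and held 73.6% and 78.9%. Of the 98 exons of the 8 transcripts, 23 held a DMSO peak base and 17 a Dox peak base. In Axin2, Apc, Gsk3b and the single-exon Fzd7 all peak bases were in long exons. Ctnnb1 and Lrp6 held most of the exceptions, with 549 and 600 DMSO bases in exons under 400 nt. In the Dox list these were 356 and 200. Of the bases in such shorter exons of the 8 transcripts, 8.33% were covered in DMSO and 3.93% in Dox. Over all coding genes with a peak in either list these were 9.89% and 5.40%. In long exons the shares were 20.6% and 14.5% for the 8 transcripts, against 17.9% and 13.1% over all those coding genes.

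The wider pathway was described through 104 genes grouped by role, of which 40 had peaks in both lists, 3 had DMSO peaks alone, 1 had a Dox peak alone and 60 had none. Ligands and their secretion genes, Porcn and Wls among them, had 0 of 21 genes with a peak. Receptors and regulators of their turnover had 8 of 24, all in both lists. Antagonists had 2 of 13 in DMSO and 1 in Dox. Dishevelled and the destruction complex had 14 of 18 in DMSO and 15 in Dox, and β-catenin, its partners and TCF/LEF factors had 15 of 19 and 13. Genes known as targets in stem cells had 5 of 12 in each list. These counts stand beside the 27.5% (DMSO) and 22.1% (Dox) of all protein-coding genes with a peak. Taken once each, 43 genes of the Wnt list were covered in DMSO and 41 in Dox. Genome-wide, peaks of either list fell on 6407 genes, those of DMSO on 6243 and those of Dox on 5007. The lists thus differed less in genes covered within the Wnt list than genome-wide. How unusual this was for so few genes was not tested. Which of the 104 genes the cells expressed was not analysed here.

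**Figure D4:**
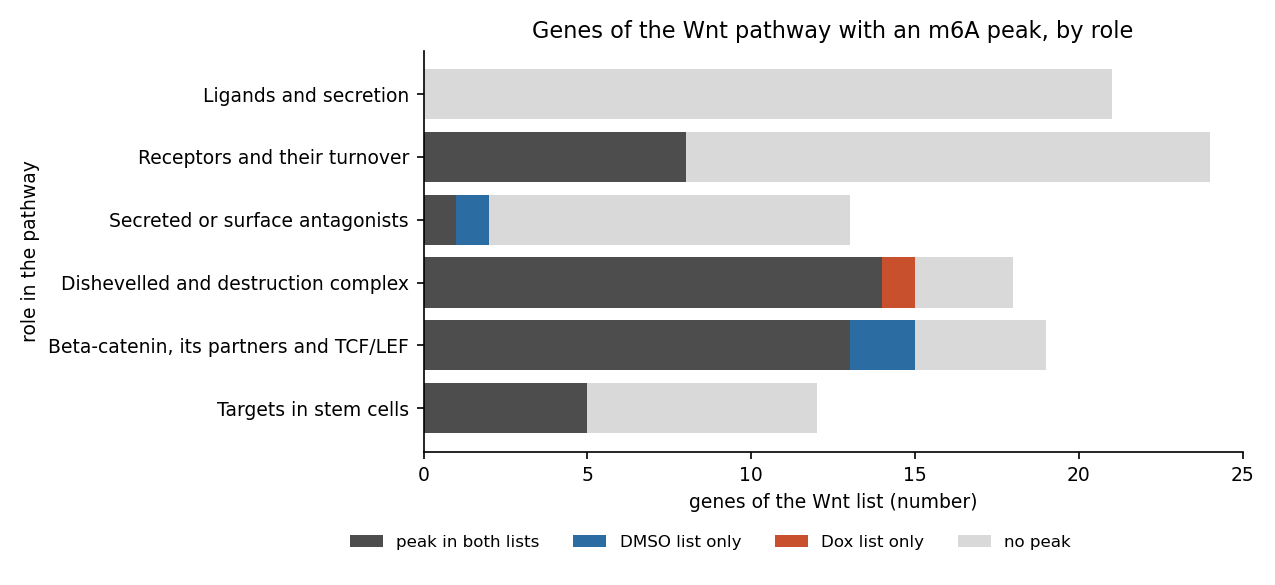
Number of genes of the Wnt list (x axis) by role in the pathway (y axis), split by whether a peak was called in both lists, in 1 list only or in none. Axin2 counts under 2 roles, as do Lef1 and Lgr5. The destruction complex row has 14 of 18 genes with peaks in both lists and the ligand row has 0 of 21.

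Among the 95 genes of this list that are not among the 9, 36 had a peak in either list. Of these, 20 had more DMSO peaks, 9 as many and 7 more Dox peaks, while 33 covered more bases in DMSO and 3 in Dox, with medians of 512.5 and 300 bases. Over all genes with a peak, 58.9% had more DMSO peaks and 86.3% more DMSO bases. The leading receptors were Fzd5, with 5 peaks in each list over 2550 and 2300 bases (best scores 19.89 and 14.18), and Lgr4, an R-spondin receptor, with 4 and 4 peaks over 1150 and 850 bases (18.46 and 12.26). The secreted antagonist Sfrp1 had 6 and 4 peaks over 1025 and 750 bases. In the destruction complex, the priming kinase Csnk1a1 had 5 and 3 peaks over 775 and 475 bases, with a higher best score in Dox (15.94 and 23.29), and Csnk1d had 8 and 3 peaks over 1050 and 575 bases.

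Among the partners of β-catenin, the chromatin remodeller Chd8 had 14 and 9 peaks over 3150 and 2250 bases and the corepressor Tle3 had 8 and 9 peaks over 1875 and 1625 bases, with best scores of 34.93 in DMSO and 19.47 in Dox. The targets Esrrb and Tfcp2l1, both naive pluripotency factors, covered 2225 and 2175 bases and 1250 and 800 bases. The 4 genes with peaks in 1 list only had few bases and low scores. In the DMSO list these were Notum, an enzyme that inactivates Wnt ligands (2 peaks, 100 bases, best score 10.78), Ctnnbip1, an inhibitor of β-catenin binding to TCF (1 peak, 75 bases, 10.46), and Tcf7l2 (2 peaks, 100 bases, 10.22). In the Dox list it was Dvl2, which relays the signal from Frizzled (1 peak, 50 bases, 10.94).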

How the data were processed

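RNA was fragmented and pulled down with an anti-m6A antibody, and IP and input libraries were sequenced. Per the labels and the methods of the study, fastp 0.19.4 served to filter the reads and HISAT2 2.2.1 to align them to mm10, and peaks were called with exomePeak2, whose version, settings and way of combining the 2 replicates per group are not given in the sources used here. The deposited peak lists, 1 per treatment, gave for each peak its position, strand, exon blocks and a score, taken here to be −log10 of the p-value that the authors' caller gave. Every score was above 10, and whether it was adjusted is not given in the sources used here. Scores and numbers of peaks depend on sequencing depth. Depth per library and expression were not analysed here.

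Peaks were compared with GENCODE M21 and with the GRCm38 sequence. Of 22 inner block edges of spliced peaks over the pathway genes, 19 lay at an annotated exon edge. Peak length was the sum of exon blocks. Peaks were called shared when they had 1 base or more in common on the same strand. The stop codon was that of the transcript with the longest coding sequence, on which 1 Gsk3b peak of each list could not be placed. Exon and codon positions used the coding transcript that held most peak bases. With blastn 2.17.0, 0 of the 70 peaks matched a second locus with 98% identity or more across 90% or more of their length. The gene, overlap and stop codon steps each passed for 2000 of 2000 simulated peaks placed on known transcripts. This check could not fail on an extra gene or on a false overlap. Its stop codon positions came from the same transcript rule, so it tests the code and not that rule. Python 3.11.15, scipy 1.17.1, pysam 0.24.0 and matplotlib 3.10.9 were used.

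The genes, gene lists and rules were chosen with earlier results of these data known. Named were all 9 genes with all their peaks, the 2 other genes of each role with most covered bases, and each gene with peaks in 1 list only. The motif window was that of the best-scoring DMSO peak with a GGAC, since the best-scoring Ctnnb1 peak had none, and no window was taken from Apc. Exon length, matched score shifts and the 5′UTR share were added after the data were seen.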

Additional observations from a re-analysis of the deposited data

How the results depend on the processing

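Values of the comparisons were recomputed under 13 alternative settings. Of 71 such values, 62 stayed within 1.5 times the reported count or within the reported interval, 8 moved and 1 reversed. The reversal was the ratio of DMSO to Dox peaks, 0.938 with as many top-scoring peaks from each list, where fewer DMSO peaks were used by construction. With a score threshold of 11.64 (the DMSO median) in both lists, 23 DMSO and 19 Dox peaks were left over the pathway genes, 84.2% of those Dox peaks were shared, and the ratio of bases in Lrp6 turned to 0.444. Asking for 50% of both peaks lowered the shared share to 47.4% of DMSO and 56.2% of Dox peaks, and asking for 50% of the peak itself lowered the DMSO share to 60.5%. DRACH, which holds more sequences than GGAC, was present in 89.5% of DMSO and 81.2% of Dox peaks. Counting either strand, whole spans or peaks with 50% of their bases in exons changed no count of peaks over the pathway genes. Of 77 values for single genes, 67 stayed within 1.5 times, 9 moved and 1 reversed. Depth limits every statement on an absent peak. No paired analysis was possible because each list combines the replicates of a treatment.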
